A study of Mus musculus with 12 samples.

Results

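The elastic fibre genes described here are 10 genes chosen by name, of 55679 genes in the deposited gene table: Eln, Fbn1, Fbn2, Fbln1, Fbln5, Efemp2, Lox, Loxl1, Mfap4 and Ltbp4. All 10 were found, each on 1 row. RNA was measured in the whole lung and the whole heart of 6 male mice of the 129S6/SvEvTac strain, aged 9–13 weeks, by stranded total RNA sequencing. The WT mice carried no targeted allele. The KO mice were homozygous for an allele in which exons 6 and 7 of Adam19, a membrane-bound metalloprotease gene, are replaced in every cell of the body by a tdTomato construct. Each of the 4 groups (lung WT, lung KO, heart WT, heart KO) held 3 libraries, and a replicate number names the same mouse in lung and heart. The labels name no treatment, and all mice were killed with sodium pentobarbital. No prefix of a mouse identifier occurs in both genotypes, and what a prefix marks is not stated, so it and the genotype cannot be told apart.

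An elastic fibre has a core of cross-linked elastin laid on a scaffold of microfibrils. Cells secrete elastin as soluble tropoelastin, which short fibulins gather onto fibrillin microfibrils, and lysyl oxidases then join the molecules through their lysines. The fibre lets alveolar walls, airways and arteries recoil after stretch, and in the heart it is found in vessels, valves and the outer and inner linings. Most elastin protein is made early in life, so the RNA of adult tissue describes present transcription and not the amount of fibre.

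Values are the log2 gene abundances that the authors deposited, in which 1 unit is a doubling. The libraries held between 17674788 and 35862932 estimated counts, and the elastic fibre genes received from 30.1 estimated counts (Fbn2 in lung KO 3) to 9141.6 (Ltbp4). Rn7s1, a structural RNA, took 2.10% to 34.0% of the counts of the lung libraries. The lung WT 3 library stood apart: its values fell by 0.26 for each 10 points of GC content relative to the mean of the 6 lung libraries, and the SD of its deviations from that mean, 0.43, was higher than that of any other library from the mean of its organ. In heart WT 2 the GC trend was −0.25 and the SD 0.30, the second highest. In the check of the targeted gene, Adam19 lay between 9.12 and 9.41 in the lungs of WT mice and between 3.21 and 4.44 in those of KO mice. In the heart it lay between 9.17 and 10.27 in WT and between 6.01 and 6.67 in KO. The tissues matched their labels. All 8 lung epithelium markers were higher in lung and all 8 heart muscle markers higher in heart, in both genotypes.

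In the comparison of lung with heart, 5 of the 10 genes differed in WT mice and 5 in KO mice, and they were the same genes. Lox, Mfap4, Efemp2 and Fbln5 were higher in lung, and Fbln1 was higher in heart. Eln, Fbn1, Fbn2, Loxl1 and Ltbp4 did not pass the thresholds in either genotype. A gene was called where the adjusted p was under 0.05 (limma, Benjamini-Hochberg over all genes tested), the organs differed by 1.5-fold or more, and the mean of 1 of the groups reached 6. Under these thresholds 50.2% of 16636 genes were called in WT and 53.2% of 16802 in KO, so 5 of 10 is near the background. By direction, 29.7% of genes were called higher and 20.5% lower in lung in WT, and 30.9% higher and 22.3% lower in KO. The ranges of the 3 lung and 3 heart libraries did not overlap for these 5 genes in either genotype, while this held for 68.7% of all genes in WT and 77% in KO. The median difference of the 10 genes was 0.21 in WT and −0.04 in KO, beside 0.30 and 0.28 over all genes. The WT and KO comparisons share no library. Whole organs were sequenced, so fewer cells of a type and less RNA per cell cannot be told apart.

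**Figure D1:**
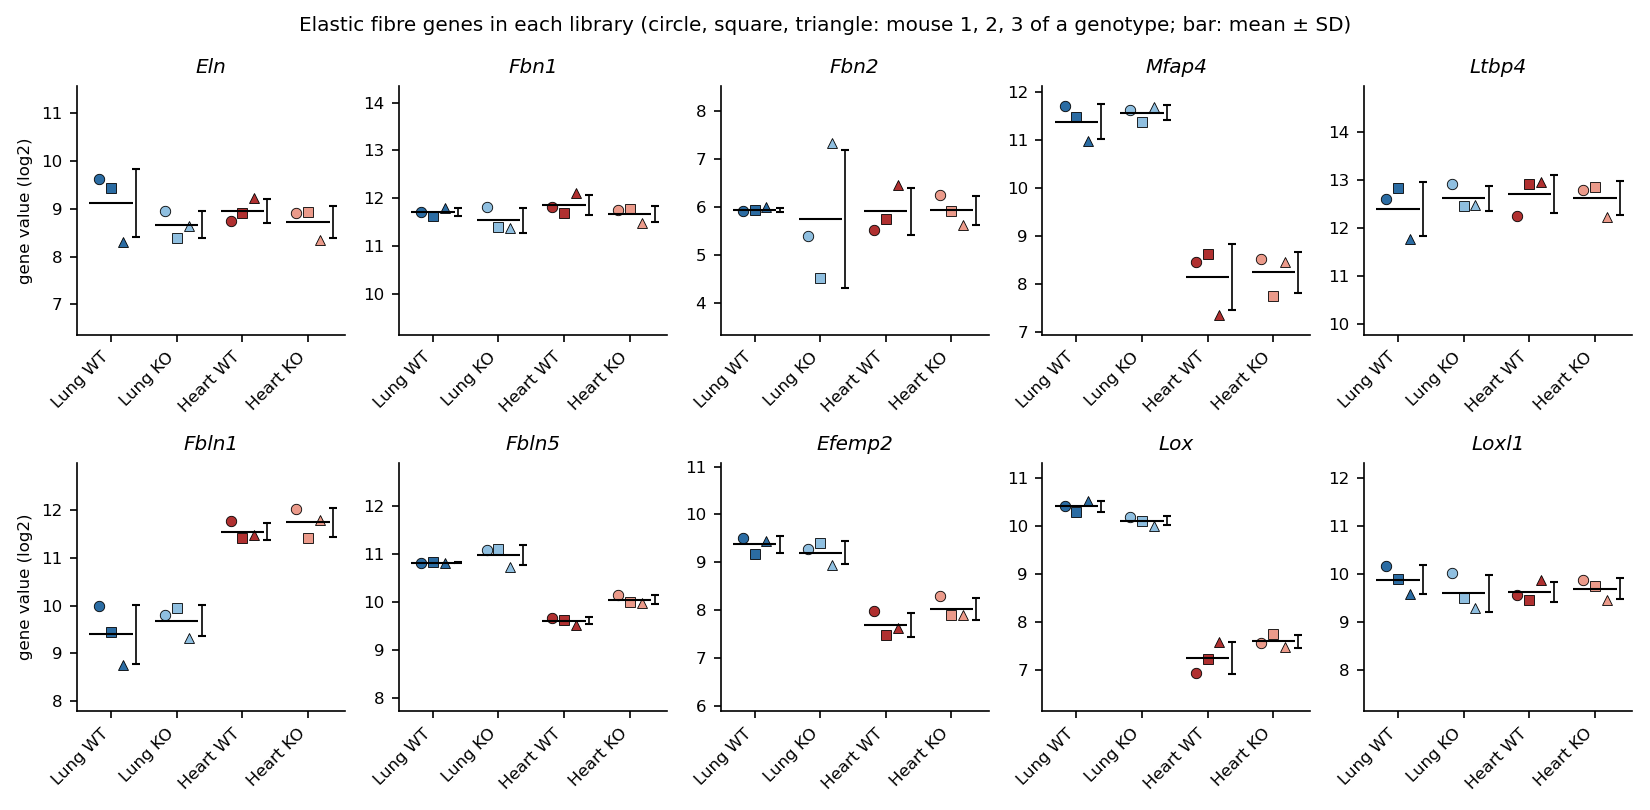
Deposited gene values (log2, vertical axis, the same span of units in every panel) of the 10 genes in lung WT, lung KO, heart WT and heart KO. Each point is 1 library, the horizontal bar is the mean of 3 and the vertical bar is the SD. Lox, Mfap4, Efemp2 and Fbln5 sit higher in lung and Fbln1 higher in heart, without overlap, while the WT and KO points of a tissue overlap for most genes.

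The core protein of the fibre is encoded by Eln, on the reverse strand of chromosome 5 (chr5:134731445-134776322, GRCm39). In lung WT its values were 9.61, 9.44 and 8.31 for replicates 1, 2 and 3, and in lung KO 8.96, 8.39 and 8.65. In heart WT they were 8.73, 8.91 and 9.23, and in heart KO 8.92, 8.93 and 8.34. The 4 groups overlapped, and the lowest value of all came from lung WT 3. The lung-to-heart difference was 0.16 (95% confidence interval −0.61 to 0.94, adjusted p = 0.692) in WT and −0.07 (−0.55 to 0.42, adjusted p = 0.791) in KO. Over 16 refits with other settings or without 1 library, it ran from −0.08 to 0.59 in WT and from −0.35 to 0.61 in KO. Within the spread of these libraries, the direction of Eln between the organs was not determined. Of the 5 Eln transcripts, the one of 3998 bases, ENSMUST00000015138.13, held 68.8% to 94.0% of the Eln counts of a lung library and 88.6% to 96.3% of those of a heart library.

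Microfibrils are built from fibrillins, and Fbn1 encodes the main fibrillin of adult tissue (chr2:125142514-125349913, reverse strand). Its values were 11.70, 11.64 and 11.80 in lung WT and 11.81, 11.70 and 12.10 in heart WT. In KO mice they were 11.83, 11.39 and 11.39 in lung and 11.75, 11.77 and 11.48 in heart. All groups overlapped within a narrow range (11.39 to 12.10), and the lung-to-heart differences of −0.16 (−0.52 to 0.21) in WT and −0.13 (−0.48 to 0.22) in KO did not pass the threshold.

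The second fibrillin gene, Fbn2, is used mainly in development (chr18:58141695-58343645, reverse strand), and it was the lowest of the 10. Its values were 5.91, 5.94 and 6.0 in lung WT, 5.51, 5.75 and 6.47 in heart WT, and 6.25, 5.92 and 5.63 in heart KO. In lung KO they were 5.39, 4.52 and 7.34, the widest range of any gene and group here. No group mean reached 6, so Fbn2 could not be called by the rule used. The value of 7.34 came from lung KO 3, which had only 30.1 estimated counts for the gene. There the summed transcripts gave 5.24 on the same scale, while in all other libraries the sum lay slightly above the gene value, from 4.65 to 6.60. In lung KO 3 the long Fbn2 transcript held 90.7% of the counts, and it held all of them in every other library. Without lung KO 3 the lung-to-heart difference in KO was −0.98 (adjusted p = 0.0469), not called because the heart KO mean of 5.93 was under 6. With summed transcripts it was −0.92 (adjusted p = 0.0199) and passed the thresholds, with a heart KO mean of 6.06.

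Mfap4, which encodes a microfibril-associated glycoprotein that binds elastin and fibrillin, had with Lox the largest differences of the 10 between the organs (chr11:61376212-61379727, forward strand). Its values were 11.71, 11.48 and 10.98 in lung WT and 8.46, 8.63 and 7.36 in heart WT. In KO mice they were 11.64, 11.39 and 11.69 in lung and 8.52, 7.75 and 8.47 in heart. Every lung value lay above every heart value. The lung-to-heart difference was 3.24 ± 0.35 (SE, adjusted p = 7.39e-05) in WT and 3.33 ± 0.21 (adjusted p = 2.48e-06) in KO, or 9.45-fold and 10.1-fold, each over 3 lungs and 3 hearts. Within single mice the difference ran from 2.85 to 3.64, in the same direction in 6 of 6 mice.

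Ltbp4 encodes a latent TGF-beta binding protein that also takes part in placing elastin on microfibrils (chr7:27004086-27037117, reverse strand), and it had the highest group means of the 10 on the gene scale. Its values were 12.61, 12.84 and 11.77 in lung WT and 12.26, 12.92 and 12.97 in heart WT. In lung KO they were 12.93, 12.46 and 12.48, and in heart KO 12.80, 12.86 and 12.23. The groups overlapped, and lung WT 3 again held the lowest value. The lung-to-heart difference was −0.31 (−1.02 to 0.41) in WT and −0.01 (−0.48 to 0.46) in KO. In 16 refits with other settings or without 1 library it lay between −0.54 and 0.11 in WT and between −0.29 and 0.67 in KO. The transcript ENSMUST00000121175.8 held 93.6% to 100% of the Ltbp4 counts in every library except lung WT 3, where it held 72.1%.

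**Figure D2:**
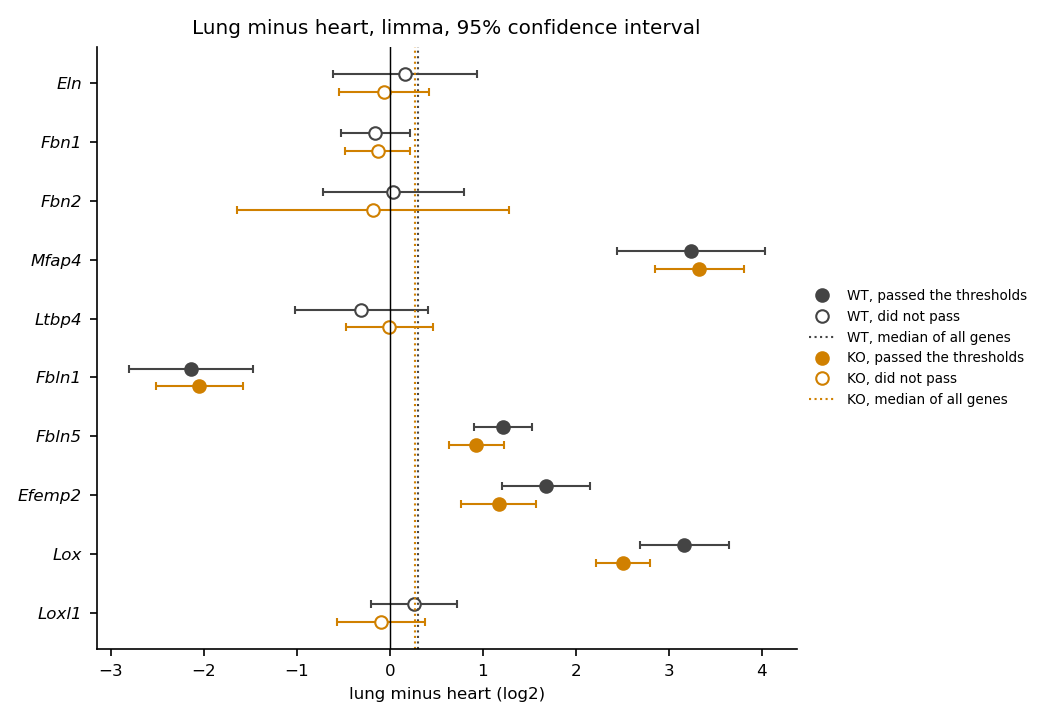
Lung minus heart on the log2 scale (horizontal axis) for the 10 genes, in WT (grey) and KO (orange). Points are limma estimates, bars are 95% confidence intervals, filled points passed the thresholds and dotted lines are the medians of all genes tested, 0.30 in WT and 0.28 in KO. The filled points are those of Mfap4, Lox, Efemp2 and Fbln5, on the side of lung, and Fbln1, on the side of heart, in both genotypes.

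Fibulins make up 3 of the 10. Fbln5, whose short fibulin ties elastin to cells and microfibrils, was higher in lung (chr12:101712556-101785429, reverse strand). Its values were 10.82, 10.85 and 10.81 in lung WT and 9.66, 9.63 and 9.53 in heart WT. In KO mice they were 11.09, 11.11 and 10.74 in lung and 10.15, 10.01 and 9.98 in heart. The organs did not overlap in either genotype. The difference was 1.22 ± 0.14 (adjusted p = 9.87e-05) in WT and 0.93 ± 0.13 (adjusted p = 0.000237) in KO, or 2.33-fold and 1.91-fold. With each library corrected for GC content and transcript length, an alternative added after seeing the data, the KO difference was 0.57, under the fold threshold of 0.58.

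Efemp2 encodes fibulin-4, which binds lysyl oxidase and brings it to tropoelastin (chr19:5523975-5532545, forward strand). Its values were 9.50, 9.18 and 9.44 in lung WT and 7.98, 7.47 and 7.63 in heart WT. In KO mice they were 9.27, 9.40 and 8.94 in lung and 8.30, 7.90 and 7.90 in heart. All lungs lay above all hearts, by 1.68 ± 0.21 (adjusted p = 0.000158) in WT and 1.17 ± 0.17 (adjusted p = 0.000377) in KO, or 3.21-fold and 2.25-fold.

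Fbln1 encodes fibulin-1, a longer fibulin of basement membranes and elastic fibres (chr15:85090150-85170737, forward strand). It was the one gene of the 10 that was called higher in heart in both genotypes. Its values were 9.99, 9.45 and 8.77 in lung WT and 11.76, 11.41 and 11.47 in heart WT. In KO mice they were 9.80, 9.94 and 9.31 in lung and 12.01, 11.41 and 11.79 in heart. The lung-to-heart difference was −2.14 ± 0.29 (adjusted p = 0.000295) in WT and −2.05 ± 0.20 (adjusted p = 3.33e-05) in KO, that is 4.41-fold and 4.15-fold lower in lung. It had this direction in 6 of 6 mice.

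Fbln1 is made as 2 main transcripts that differ at the 3′ end. They share 14 coding exons with 1703 coding bases and then end on different exons: fibulin-1C (ENSMUST00000109432.4, 15 exons) on an exon 15 of its own, and fibulin-1D (ENSMUST00000057410.14, 17 exons) on exons 15 to 17. The coding part of the own exon of fibulin-1C is at chr15:85135646-85135997 (352 bases), and those of fibulin-1D are at chr15:85147460-85147602, chr15:85149451-85149582 and chr15:85169241-85169377 (412 bases together). The junctions are shown because the reads that cross them, and those within the exons that follow, are what tells the 2 forms apart. Each run gives the last 30 coding bases of exon 14 (chr15:85128478-85128507) in lower case and the first 120 bases of the following own exon in capitals, 5′ to 3′ on the forward strand, from the GRCm39 genome.

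Fbln1-C: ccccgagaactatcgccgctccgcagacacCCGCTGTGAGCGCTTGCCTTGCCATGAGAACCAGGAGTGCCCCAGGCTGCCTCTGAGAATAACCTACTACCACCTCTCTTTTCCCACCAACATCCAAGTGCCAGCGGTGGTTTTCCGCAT
Fbln1-D: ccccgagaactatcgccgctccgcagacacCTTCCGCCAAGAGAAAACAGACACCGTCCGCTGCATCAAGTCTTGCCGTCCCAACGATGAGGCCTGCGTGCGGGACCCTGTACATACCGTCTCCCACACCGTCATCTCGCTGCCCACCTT

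The C form held a larger share of the Fbln1 counts in heart than in lung. In heart WT it held 65.8%, 78.4% and 81.9% of the Fbln1 counts of replicates 1, 2 and 3, and in heart KO 66.7%, 63.9% and 69.8%. In lung WT it held 37.9%, 62.6% and 28.0%, and in lung KO 39.9%, 41.3% and 49.8%. Every heart lay above every lung, by a small margin (63.9% against 62.6%). The share was higher in heart than in lung in 6 of 6 mice. How often the shares of other transcripts lie apart in this way was not computed. Gene levels, a different measure compared within a genotype, did not overlap between the organs for 68.7% of all genes in WT and 77% in KO. The C transcript is shorter (2329 against 3659 bases), so the share was also taken per kilobase, of both forms together, an alternative added after seeing the data. It was then 38.01% to 72.5% in lung WT, 51.1% to 60.9% in lung KO, 75.1% to 87.7% in heart WT and 73.6% to 78.4% in heart KO. On that scale every heart again lay above every lung, and C was over 50% in all libraries except lung WT 1 and lung WT 3. On the transcript scale, the log2 level of the C form was 8.19 ± 0.95 (SD, n = 3) in lung WT against 11.04 ± 0.08 in heart WT, and 8.57 ± 0.20 in lung KO against 11.11 ± 0.33 in heart KO. The D form was 8.63 ± 0.73 in lung WT, 9.39 ± 0.69 in heart WT, 8.94 ± 0.49 in lung KO and 10.10 ± 0.25 in heart KO. Its lung and heart ranges overlapped in WT and not in KO.

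The test of transcript usage (limma diffSplice) compared a transcript's lung-to-heart difference with that of the other transcripts of its gene. For the pair of Fbln1 forms this is 1 comparison, and the D form exceeded the C form by 1.38 in KO (adjusted p = 0.0320) and by 2.10 in WT (adjusted p = 0.127). The difference was thus called in KO and not in WT, and whether WT and KO differ in it was not tested. The KO call was not firm: with mouse as a replicate block the adjusted p was 0.0765, and it was 0.0557 to 0.143 without any one of 5 of the 6 libraries (0.0216 without lung KO 3). The call held with a pseudocount of 8 (adjusted p = 0.0193) and with at least 10 counts in every library (adjusted p = 0.0130). Of 22 transcripts of the elastic fibre genes tested in WT, 1 was called, beside 11.9% of 28021 transcripts in all. It was ENSMUST00000166303.9 of Efemp2 (adjusted p = 0.0499), and it was not called under any alternative. In KO 5 of 18 were called, beside 24.4% of 28845. Besides both Fbln1 forms, these were ENSMUST00000070118.14 (−3.14, adjusted p = 0.00192) and ENSMUST00000236518.2 (4.84, adjusted p = 4.78e-05) of Efemp2, and ENSMUST00000121175.8, the main transcript of Ltbp4 (4.25, adjusted p = 0.0469). With mouse as a replicate block these last 3 were called. ENSMUST00000121175.8 held 98.56% to 99.33% of the Ltbp4 counts in lung KO and 98.04% to 99.35% in heart KO. Its share thus overlapped between the organs, and the 4.25 is a difference from minor transcripts. The Ltbp4 call was lost with a pseudocount of 8 (2.0, adjusted p = 0.0791) and without any one library (1.30 to 3.82, adjusted p = 0.116 to 0.745). Both Efemp2 calls held in those fits, but with the pseudocount of 8 the differences shrank to −1.77 and 2.08. Neither Efemp2 transcript passed the filter of at least 10 counts in every library, so neither was tested there. Another Ltbp4 transcript, ENSMUST00000206413.2, was called without lung KO 2 (9.53, adjusted p = 1.75e-07) and without each of the heart KO libraries (6.53 to 7.11, adjusted p = 0.0313 to 0.0376). It had 0 counts in every heart KO library and in lung KO 2, and 129.6 and 30.7 in lung KO 1 and 3. It was absent from the main fit and entered only where leaving out a library lowered the filter to 2 libraries. It passed that filter through lung alone, so nothing is read from these calls. ENSMUST00000038618.13 and ENSMUST00000118583.8 were also called without lung KO 2, in a fit that set them against that transcript among others. Without lung KO 3, ENSMUST00000221373.2 of Fbln5 (adjusted p = 0.0459) and ENSMUST00000165485.8 of Efemp2 (−1.77, adjusted p = 0.0495) were called. Without heart KO 3, ENSMUST00000064783.10 (adjusted p = 0.0406) and ENSMUST00000126308.2 (adjusted p = 0.0282) of Mfap4 were called. With the pseudocount of 8, 7 of the 18 were called, among them both Eln transcripts (adjusted p = 0.0449, and 0.0270 with at least 10 counts in every library) and ENSMUST00000040522.7 of Mfap4 (adjusted p = 0.0316). Both Efemp2 transcripts called in the main KO fit are minor ones, since ENSMUST00000165485.8 held 80.4% to 94.0% of the gene in each library.

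**Figure D3:**
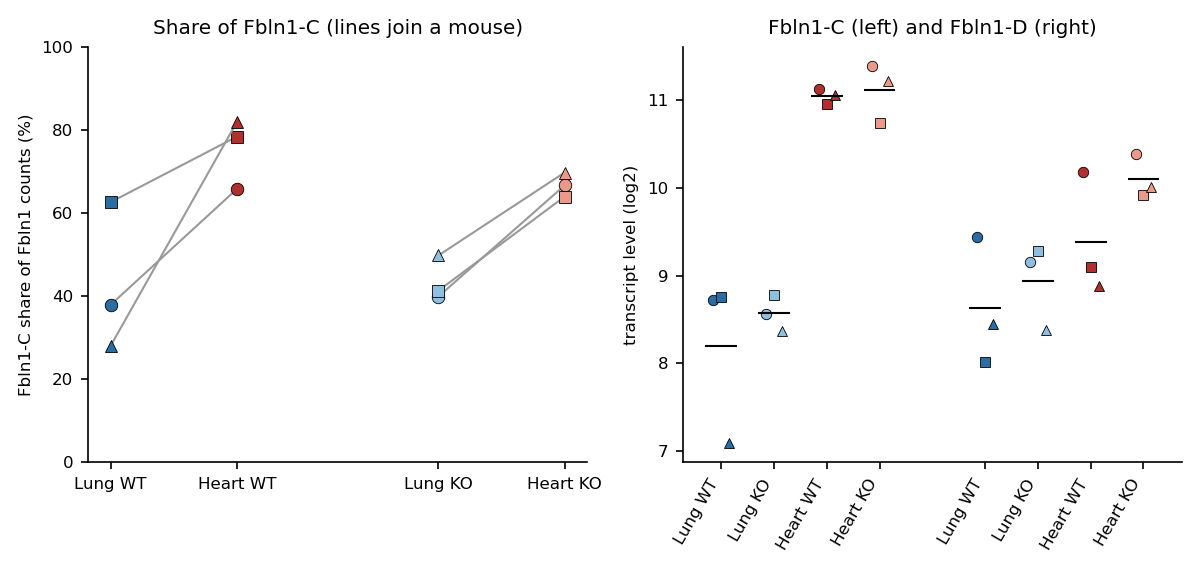
Left, the share of Fbln1-C among Fbln1 counts (%), with a line joining the lung and heart of a mouse. Right, the log2 level of Fbln1-C and Fbln1-D in each library, with the mean of 3 as a bar. The C share is 28.0% to 62.6% in lung and 63.9% to 81.9% in heart, and the organs are further apart in Fbln1-C than in Fbln1-D.

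The cross-linking enzyme gene Lox (chr18:52649136-52663110, reverse strand) was 10.42, 10.31 and 10.53 in lung WT and 6.93, 7.23 and 7.59 in heart WT. In KO mice it was 10.20, 10.12 and 10.02 in lung and 7.57, 7.75 and 7.49 in heart. Every lung lay more than 2 units above every heart. The difference was 3.17 ± 0.21 (adjusted p = 5.13e-06) in WT and 2.51 ± 0.13 (adjusted p = 7.88e-07) in KO, or 9.0-fold and 5.70-fold. The 2 Lox transcripts in the table have the same coding exons, and the share of the longer one varied from 20.3% to 100% among libraries, with overlap of the groups.

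Loxl1, which encodes the lysyl oxidase relative that acts most on elastin (chr9:58195014-58220495, reverse strand), was not called in either genotype. Its values were 10.17, 9.89 and 9.58 in lung WT, 10.02, 9.49 and 9.28 in lung KO, 9.56, 9.44 and 9.86 in heart WT and 9.87, 9.75 and 9.44 in heart KO. All groups overlapped, and the lung-to-heart difference was 0.26 (−0.21 to 0.73) in WT and −0.09 (−0.56 to 0.38) in KO. The scaling between libraries matters for these smaller differences, since it moved the median of all genes from 0.30 in WT to 0.09 (trimmed mean of M values), 0.11 (median centring) or 0.73 (limma-voom on library sums). In KO it moved that median from 0.28 to −0.01, 0.13 or 0.96. The split of all calls moved with it: in KO, 5190 genes were higher and 3744 lower on the deposited values, 4187 and 4767 with the trimmed mean, and 8101 and 2257 with limma-voom. In WT these splits were 4945 and 3413, 4088 and 3972, and 6709 and 2464. The 5 called genes kept their direction and their call under all 3 scalings. limma-voom on library sums also called Loxl1 higher in lung in WT, by 0.69, and Eln, Loxl1 and Ltbp4 higher in lung in KO.

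Levels can be compared between genes only per length of transcript, so estimated counts, scaled between libraries, were divided by each transcript's length in kilobases. In lung WT the order by mean was Mfap4 (1587 ± 393 per kilobase, SD, n = 3), Ltbp4 (1042 ± 352), Fbn1 (342 ± 19.1), Fbln5 (341 ± 16.0), Efemp2 (310 ± 34.2), Lox (296 ± 21.0), Loxl1 (287 ± 58.3), Fbln1 (261 ± 107), Eln (161 ± 69.2) and Fbn2 (5.98 ± 0.20). The ranges of neighbours in this order overlapped except between Ltbp4 and Fbn1 and between Eln and Fbn2. In heart WT the order was Ltbp4 (1252 ± 315), Fbln1 (1103 ± 144), Fbn1 (383 ± 57.4), Loxl1 (238 ± 36.8), Mfap4 (177 ± 72.2), Fbln5 (146 ± 11.9), Eln (137 ± 23.6), Efemp2 (96.0 ± 19.2), Lox (33 ± 7.43) and Fbn2 (6.03 ± 2.21). There the ranges of neighbours overlapped except between Fbln1 and Fbn1, Fbn1 and Loxl1, Efemp2 and Lox, and Lox and Fbn2. Lox and Loxl1 thus overlapped in lung WT, while in heart WT every Loxl1 value lay above every Lox value. In lung KO the order began with Mfap4 (1789 ± 193) and Ltbp4 (1158 ± 222), which did not overlap, and ended with Eln (110 ± 23.2) and Fbn2 (5.41 ± 4.07). In heart KO it began with Fbln1 (1269 ± 260) and Ltbp4 (1172 ± 262), which overlapped, and ended with Lox (42.5 ± 4.02) and Fbn2 (6.02 ± 1.30). With the length of the longest transcript for all transcripts of a gene, the middle of the lung WT order changed (Loxl1 rose from place 7 to 4 and Fbn1 went from 3 to 6), and the first 2 and last 3 places did not. In heart KO this length put Ltbp4 (1117) before Fbln1 (918), and in lung KO it moved the mean of Fbn2 to 3.18.

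**Figure D4:**
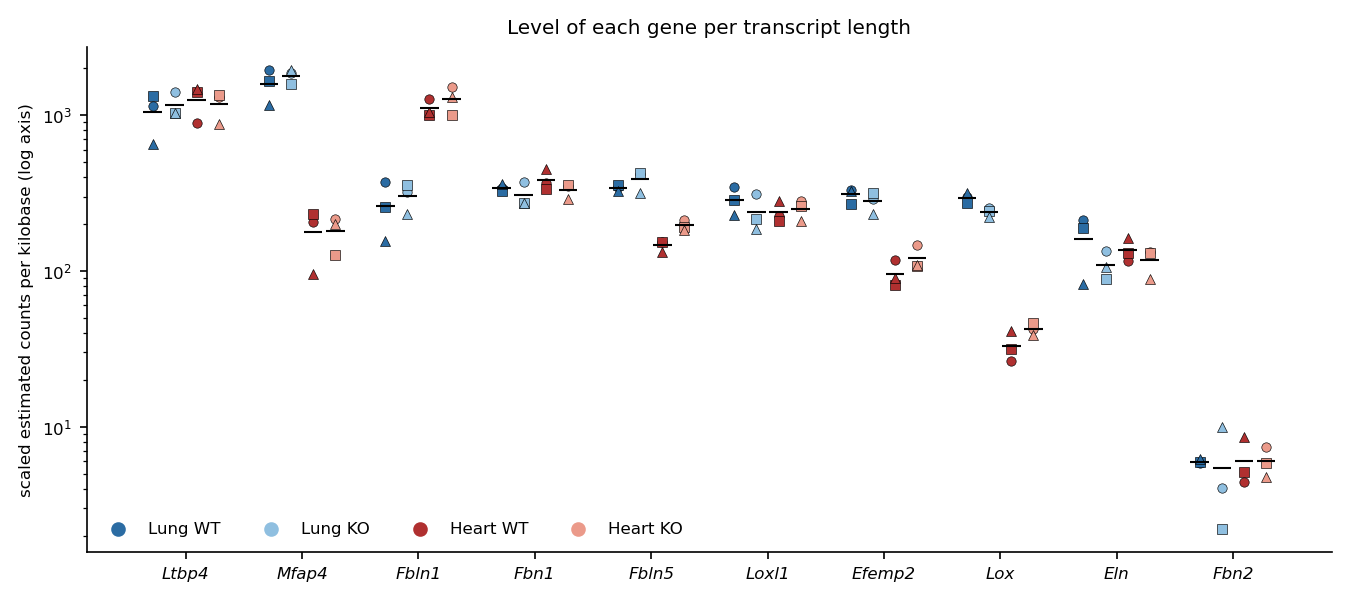
Scaled estimated counts per kilobase of transcript (log axis) for the 10 genes, ordered by their mean over 12 libraries, each point 1 library and each bar the mean of 3. Mfap4, Fbln1 and Lox are among the genes that change place between lung and heart, and Fbn2 is lowest in all 4 groups.

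In the comparison of KO with WT mice, none of the 10 genes was called in lung or in heart. The thresholds called 11 of 16551 genes (0.0665%) in lung and 13 of 15303 (0.085%) in heart. At an unadjusted p under 0.05 (limma) there were 0 of the 10 genes in lung and 1 in heart, among 981 and 1141 genes in all, and limma-voom also called none of the 10. On the deposited gene values, groups without overlap were found for 1 of the 10 genes in each organ, beside 12.8% of all genes in lung and 13% in heart. The median KO minus WT difference of the 10 genes was −0.17 in lung and 0.08 in heart, beside 0.01 and 0.03 over all genes.

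In lung, Lox was the gene without overlap on the deposited gene values. Its KO values of 10.02 to 10.20 lay below its WT values of 10.31 to 10.53, a difference of −0.31 (95% confidence interval −0.64 to 0.02, adjusted p = 0.836 by limma). Eln was 8.66 ± 0.29 (SD, n = 3) in KO lungs and 9.12 ± 0.71 in WT lungs, a difference of −0.46 (−1.21 to 0.30, adjusted p = 0.842). Over 16 refits with other settings or without 1 library, the Eln difference ran from −0.86 to −0.17. Without lung WT 3, whose Eln value was the lowest, the difference was −0.86 (adjusted p = 0.457 by limma). The same library turned the sign of others: without it, the KO minus WT difference went from 0.28 to −0.04 for Fbln1, from 0.18 to −0.02 for Mfap4 and from 0.22 to −0.10 for Ltbp4. Lung WT 3 held the lowest lung WT value of 6 of the 10 genes and the highest of 3. The part that its GC trend has in these values was not tested. Of the marker lists, the mesothelium sum did not overlap between the genotypes in lung (13.17 to 13.35 in WT and 12.78 to 13.15 in KO, log2). None of its 6 genes was called or had an unadjusted p under 0.05, and its part in the Lox difference was not tested. The remaining differences in lung were −0.28 (−0.82 to 0.25) for Loxl1, −0.18 (−0.55 to 0.20) for Fbn1, −0.17 (−0.58 to 0.24) for Efemp2, 0.15 (−0.20 to 0.50) for Fbln5 and −0.20 (−1.59 to 1.19) for Fbn2. That of Fbn2 was −0.99 without lung KO 3, 0.42 without lung KO 2 and −0.94 with summed transcripts. On summed transcripts the Fbn2 values of 4.65 to 5.52 in lung KO lay below those of 6.04 to 6.13 in lung WT, without overlap. The share of all genes without overlap on that scale was not computed. With limma-voom the median of all genes in lung moved from 0.01 to 0.29, Fbn1 (0.10), Efemp2 (0.12) and Loxl1 (0.01) turned positive, and Lox was −0.02.

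In heart, Fbln5 was the gene without overlap. Its KO values of 9.98 to 10.15 lay above its WT values of 9.53 to 9.66, by 0.44 (0.16 to 0.72, adjusted p = 0.481 by limma). It lay between 0.39 and 0.52 in 16 refits with other settings or without 1 library, with an adjusted p of 0.28 to 0.994. Of the smooth muscle markers, 5 of 8 also had an unadjusted p under 0.05 in this comparison and higher values in KO hearts, among them Tagln (1.38 ± 0.25, SE, adjusted p = 0.194) and Myh11 (0.81 ± 0.18, adjusted p = 0.315). None of the 8 was called. The summed level of the list ran from 13.86 to 14.14 in heart WT and from 14.42 to 14.62 in heart KO on the log2 scale, and the sum of the cartilage markers also did not overlap (8.56 to 9.29 in WT and 9.55 to 10.004 in KO). Of the 5 cartilage markers tested, Acan, Cnmd and Comp had an unadjusted p under 0.05, and none was called. The part of these lists in the Fbln5 difference was not tested. Of the fibroblast markers, 1 of 8 (Col1a2) had such a p, and the sums of that list overlapped. Lox (0.35, −0.12 to 0.82) and Efemp2 (0.34, −0.11 to 0.79) were also higher in KO hearts by mean, and the others ranged from −0.23 (Eln) to 0.19 (Fbln1). Heart KO 3 held the lowest heart KO value of 8 of the 10 genes.

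**Figure D5:**
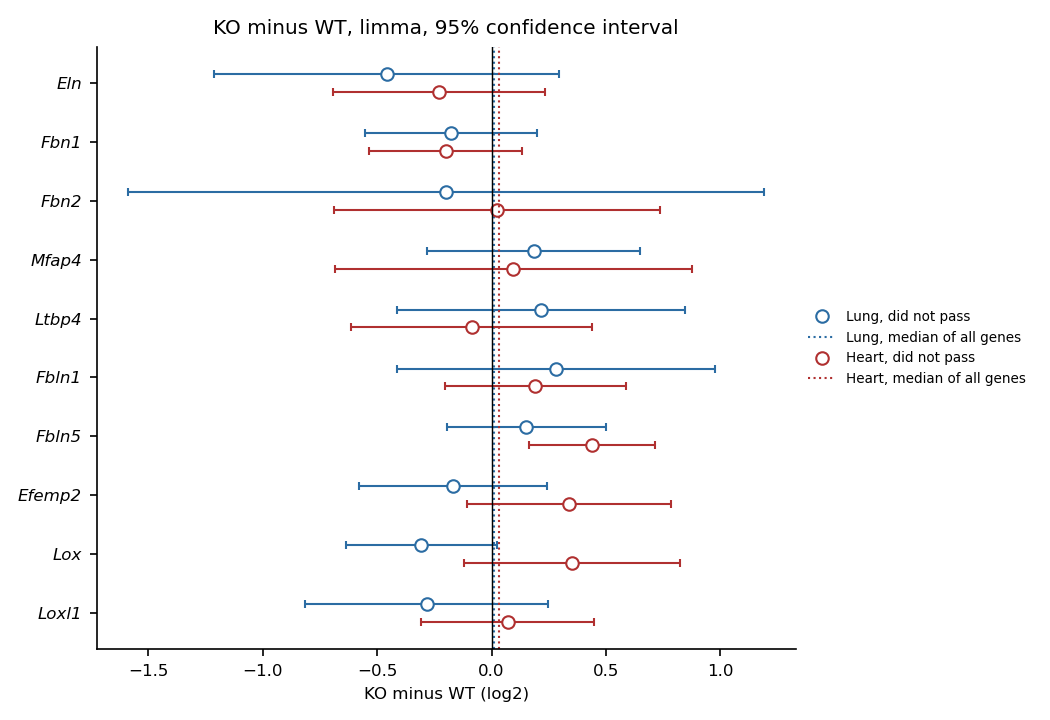
KO minus WT on the log2 scale (horizontal axis) for the 10 genes in lung (blue) and heart (red), as limma estimates with 95% confidence intervals. Dotted lines are the medians of all genes tested. No point is filled, since none passed the thresholds, and the interval of Fbln5 in heart, 0.16 to 0.72, is the one that does not contain 0.

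The difference of the KO effect between lung and heart was tested in 1 model of 4 group means. None of the 10 genes was called, beside 1 of 17666 genes (0.00566%). At an unadjusted p under 0.05 there was 1 of the 10, Lox, among 1392 genes. Its KO minus WT difference was −0.31 in lung and 0.35 in heart, and the difference between them was −0.66 (−1.17 to −0.14, adjusted p = 0.592 by limma). This gap is the same quantity as the smaller lung-to-heart difference of Lox in KO (2.51) than in WT (3.17). Over 22 refits it ran from −0.83 to −0.44, with an adjusted p of 0.395 to 0.869. Of the 10 genes 6 had this sign, with Efemp2 at −0.51 (−1.09 to 0.07), Loxl1 at −0.35, Fbln5 at −0.29, Eln at −0.23 (0.02 with limma-voom) and Fbn2 at −0.22. The others were Ltbp4 (0.30), Fbln1 (0.09), Mfap4 (0.09) and Fbn1 (0.02, or −0.02 with the trimmed mean). Over 22 refits Lox, Efemp2, Loxl1 and Fbln5 kept their sign, and each of the others changed sign in at least 1.

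Genes that act on or beside the elastic fibre were taken from 7 further lists, whose counts stand beside 29.7% of all genes called higher and 20.5% lower in lung in WT, and 30.9% and 22.3% in KO. Among 13 tested genes of microfibril-associated and microfibril-binding proteins, 5 were higher in lung and 4 lower in WT, and 4 and 4 in KO. Adamts10, a protease relative that binds fibrillin, was higher in lung by 1.99 ± 0.15 in WT and 2.08 in KO. Mfap2, which encodes a small microfibril glycoprotein, was higher by 1.58 and 1.89, and Thsd4 by 1.67 and 0.72. Emilin2, an elastin interface protein gene, was lower in lung (−2.33 in WT and −2.25 in KO), as were Adamts6 (−1.15 and −1.07), Adamtsl4 (−1.40 and −1.37) and Adamtsl5 (−1.48 and −1.02). Microfibril genes outside the 10 were thus called in both directions between the organs.

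Of 6 latent TGF-beta binding proteins and ligands, Ltbp2 was higher in lung in both genotypes, by 2.95 ± 0.29 in WT and 1.44 ± 0.40 in KO, and 1 in WT and 2 in KO were called higher in all. Other fibulins and relatives went both ways: Efemp1 (2.50 and 3.00) and the hemicentin Hmcn1 (1.43 and 1.5) were higher in lung, and Fbln2 (−1.45 and −1.20) and Hmcn2 (−2.29 and −2.25) lower. Of 8 genes for other lysyl oxidases, their processing and copper supply, 3 were higher and none lower in both genotypes. These were Atp7a, a copper transporter gene (1.67 and 2.01), Tll1, a tolloid protease gene (2.85 and 2.54), and Pcolce, a procollagen protease enhancer gene (0.93 and 0.71). Loxl2, Loxl3, Loxl4 and Bmp1 were not called in either genotype. Tll2 differed by −5.49 and −4.50, but its levels were under the minimum mean of 6.

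Of 7 tested elastin-degrading proteases, 5 were higher in lung in WT and 4 in KO, and none lower. Ctss (4.15 and 3.37), Mmp9 (2.43 and 2.77), Ctsk (1.17 and 0.75) and Mmp14 (0.89 and 1.20) were higher in both genotypes. Elane, Prtn3 and Ctsg, the neutrophil serine proteases, did not pass the filter on low values. Of 8 tested inhibitors, 5 were higher in lung in both genotypes, Slpi (7.11 and 5.93), Wfdc2 (8.88 and 8.26), Serpina1b (1.78 and 1.71), Timp2 (1.14 and 1.13) and Timp3 (1.12 and 1.01). Cst3, a cysteine protease inhibitor gene, was lower (−0.61 and −1.16). Reads of the Serpina1 genes, which are near-identical copies, may have been split among them. Of the 7 elastin receptor and chaperone genes, Lgals3 (5.37 and 4.25) and Itgb3 (2.23 and 1.78) were higher in lung in both genotypes. Itgav (0.67 in WT and 0.70 in KO) and Itgb5 (−0.37 and −0.66) were called in KO and not in WT, and neither was called in the test of the difference between them. No gene of the 7 lists was called between KO and WT in either organ.

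Markers of cell types, those that make elastic fibres among them, were counted in the same way, beside the 50.2% of all genes called in WT and 53.2% in KO. All 6 markers of lung alveolar fibroblasts were higher in lung in both genotypes, with a summed log2 level of 16.13 to 16.54 in lung WT against 13.43 to 13.51 in heart WT. Of 8 general fibroblast markers, 3 (Pdgfra, Tcf21 and Col6a3) were higher in lung and 2 (Lum and Dcn) lower, and their summed level overlapped between the organs (14.87 to 15.12 in lung WT and 14.98 to 15.29 in heart WT). Of 8 smooth muscle markers, 3 were higher and 3 lower in WT, and 1 and 4 in KO. Of 8 endothelial markers, 6 in WT and 7 in KO were higher in lung. Of 6 mesothelial markers, 5 were higher and 1 lower in lung in both genotypes. Of the cartilage markers 2 of 5 tested in WT and 3 of 6 in KO were lower in lung, of 7 blood and platelet markers 1 was higher and 1 lower, and of 6 adipocyte markers 1 was lower, in both genotypes. What part these cell types have in the differences of the elastic fibre genes was not tested.

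Among themselves, the 10 genes varied in several ways over the 12 libraries. After each value was taken as its deviation from its group mean, the correlation across libraries was highest between Eln and Ltbp4 (Pearson r = 0.91, n = 12 libraries), then between Eln and Loxl1 (0.78) and between Fbn1 and Loxl1 (0.73). It was lowest between Fbn2 and Fbln5 (−0.80) and between Lox and Mfap4 (−0.79). With summed transcripts in place of the gene values, an alternative added after seeing the data, it was −0.16 for Fbn2 and Fbln5, −0.72 for Lox and Mfap4 and 0.91 for Eln and Ltbp4. Fbn1 and Fbn2 went from 0.09 to 0.77, above Fbn1 and Loxl1 (0.69). These are descriptions over libraries that share depth, GC trend and, in pairs, a mouse. Ltbp4 (61.3% GC), Loxl1 (60.9%) and Eln (58.4%) had the highest GC content of the 10, and Lox the lowest (43.2%). Of 12182 genes with a mean of at least 6, the 5 most like Eln by the same measure were Etv3 (0.97), Kank2 (0.97), Trim8 (0.97), Zc3h4 (0.96) and Mllt6 (0.96). The correlation of a gene with Eln ran from −0.81 at the 5th to 0.81 at the 95th percentile of all genes. That of Loxl1 lay within this range and that of Ltbp4 above it. The 5 named genes were picked by this measure, so they lie above the range by selection.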

How the data were processed

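Salmon was used by the authors to assign stranded total RNA reads to the transcripts of GENCODE vM33 (mm39), and the submitters' processing notes also name cutadapt, STAR and limma 3.42.2. A gene and a transcript table were deposited, both in log2 units. The transcript values are log2(1 + estimated count). The deposited gene values on the log2 scale equal, for genes with 1 transcript, the transcript value plus a constant for each library (−0.63 to 0.80). At transcript values of at least 9, 94.7% to 98.6% of these genes in a library were within 0.01 of the constant. The step from transcripts to genes and the method behind the constants are not given in the sources used here.

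The members and lists were chosen with earlier results of these data known. Deposited gene values were tested with limma 3.58.1 (lmFit and eBayes with a variance trend, R 4.3.3) across all genes that reached 3.46 (10 counts on the log2 scale) in 3 or more libraries. Only the groups compared entered a fit. The thresholds follow the study: Benjamini-Hochberg adjusted p under 0.05, 1.5-fold or more, and 1 group mean that reached 6. Because the values are not counts, limma stood in for the study's limma-voom, which is an alternative. Transcript usage was tested with diffSplice on transcript values plus the library constant. Alternatives were other scalings, filters, pseudocounts, summed transcripts, a fit of all 12 libraries, a correction for GC content and length, mouse as a block, and leaving out each library. The rule for names took the 10 members, genes of the 7 lists called between organs in both genotypes, the 5 genes most like Eln, member transcripts with at least 10% of a gene and Adam19. Genes outside that rule (markers, minor transcripts, uncalled list genes) were named after their values were seen. The fits were tested on simulated data. Positions were taken from the vM39 annotation of GRCm39, the assembly of the files, in which all 10 members were found. Replicates are separate mice, and the pairing of lung with heart comes from the mouse identifiers in the labels. Correlations of the deviations of 10286 genes between the organs of a mouse were 0.06, 0.25 and −0.18 in WT and 0.27, −0.17 and −0.05 in KO. Estimated counts carry the uncertainty of assigning reads among transcripts, which the values do not show.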

Additional observations from a re-analysis of the deposited data

How the results depend on the processing

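Between lung and heart, the calls of Lox, Mfap4, Efemp2, Fbln1 and Fbln5 held in WT and KO under every alternative run, leaving out each library included, except Fbln5 in KO with GC and length correction (0.57). With limma-voom 8 genes were called in KO, and the uncalled Eln, Fbn1, Loxl1 and Ltbp4 turned positive there (0.61, 0.54, 0.59 and 0.67). With summed transcripts Fbn2 was called lower in lung in KO (−0.92). Among values not called in either fit, 62 of 695 changed sign. Counts over all genes moved as follows. With at least 10 counts in every library, 1 gene was called in lung KO against WT and 7 in heart. In WT usage, 1555 of 10267 transcripts were called with that filter, beside 3326 of 28021 in the main fit. Leaving out each library gave 10 to 21 genes in heart KO against WT and 0 to 5 for the difference between organs. The latter was 0 with median centring, 4 with a pseudocount of 8 and 2 with GC and length correction. For usage, 0 member transcripts were called in WT with a pseudocount of 8, with at least 10 counts, or without any one library, and in KO 2 to 6 without one library. With mouse as a replicate block, 0 member transcripts were called in WT and 3 in KO, and 2 genes for the difference between organs; it changed no other call of a member. The cause of these changes was not tested. With 3 mice a group, the widths of the intervals in the text bound what could be seen. Fbn2, with few counts, had the largest SD of the 10 genes in lung KO (1.44) but an SD of 0.04 in lung WT. The largest SD in lung WT was that of Eln (0.71), and in heart that of Mfap4 (0.69 in WT and 0.43 in KO). The minor transcripts were also imprecise.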
